A study of Mus musculus with 12 samples.

Results

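Ptpn4 and Ppm1m encode protein phosphatases of different families, and their mRNAs carried 3 of the 6462 cytosines that passed the filter for 5-methylcytosine (m5C) in RNA bisulfite sequencing of mouse neural stem cells. Members were all cytosines whose gene annotation names Ptpn4 or Ppm1m. A site had to have a coverage of at least 20 reads, at least 6 unconverted reads and a level of at least 10% in both replicates of at least 1 condition. The 6462 sites lay in 2079 of the 17202 genes with a listed cytosine. The levels themselves chose the sites, so a level above 10% is a description and not a result. Ptpn4 contributed 1 site and Ppm1m 2 sites.

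The neural stem cells were isolated from the subventricular zone of wild-type male C57BL/6 mice aged 6 to 8 weeks and grown as a culture with B27, EGF and bFGF. They were kept for 4 days in folic acid at a low (LF, 1.5 μM), a middle (MF, 10 μM) or a high (HF, 80 μM) concentration, and cells for polysome profiling received cycloheximide, which holds ribosomes on the mRNA. Poly(A) RNA was taken from whole cells (total) or from pooled sucrose gradient fractions with more than 3 ribosomes per mRNA (polysome), which gave 12 libraries, 2 biological replicates in each of 6 groups. The cells are a culture and not intact tissue.

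Bisulfite turns unmethylated cytosine into uracil, which is read as T, whereas m5C is still read as C, so the m5C level of a cytosine is the share of its reads that stay C. In mRNA the mark is written mainly by NSUN2 and is known to influence export, stability and translation. Ptpn4 is a cytoplasmic tyrosine phosphatase with a FERM and a PDZ domain. Ppm1m is a serine/threonine phosphatase of the metal-dependent PP2C (PPM) family, which is unrelated to the tyrosine phosphatases in sequence. Folate feeds the one-carbon cycle that makes S-adenosylmethionine, the methyl donor of RNA methyltransferases.

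The sites are shown with the 10 bases on either side, 5′ to 3′ on the transcript strand, as DNA letters and with the measured cytosine in capitals. The middle cytosine of Ppm1m, which lies between its 2 sites, is included because it did not pass the filter in both replicates of any condition.
Ptpn4, chr1:119837159-119837159, minus strand: catctcgccgCgaggtgcgag
Ppm1m, the first cytosine, chr9:106199113-106199113, minus strand: cgcgctccagCccggtgccct
Ppm1m, the middle cytosine, chr9:106199112-106199112, minus strand: gcgctccagcCcggtgcccta
Ppm1m, the third cytosine, chr9:106199111-106199111, minus strand: cgctccagccCggtgccctat
Positions are on mm10 (GRCm38). The Ppm1m cytosines are neighbours in a run of 3 and a read that covers one of them will nearly always cover the others, so they are not independent measurements.

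In the GENCODE vM21 annotation, Ptpn4 spans chr1:119652467-119837613 on the minus strand. Its site lies in the 5′UTR, in exon 1 of 27 of the transcript Ptpn4-201, at base 455 of 10874 and 275 bases upstream of the start codon. It is also in the 5′UTR of the shorter Ptpn4-203, again 275 bases upstream of the start codon. Ppm1m spans chr9:106194947-106199746 on the minus strand. Its sites lie in the coding part of exon 1 of the transcript Ppm1m-203, at bases 163 and 165 of 1846. The first cytosine is in codon 27 and the other two are in codon 28. No other annotated Ppm1m transcript holds these bases in an exon, and Ppm1m-201, with as many exons, starts downstream of them. No other gene is annotated over any of these positions.

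All 3 sites have the letters GGTG within 8 bases 3′ of the cytosine, a feature that was picked after the sequences were read and searched only on the transcript strand. The Ppm1m sites share the same GGTG. Of all 6462 called sites, 59 had GGTG there, which is 0.913%. Among the 279 called sites that had no other called site within 25 bases and passed in a condition other than the total libraries labelled HF, 14 had it, or 5.02%; the Ppm1m sites are too close to each other to be among them. The match is a description of letters and shows no site of an enzyme.

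Some libraries stood apart from the rest. The total libraries labelled HF had 27353 and 21195 variant cytosines, against 6134 to 7899 in the LF and MF total libraries. These were 1.32% and 1.18% of their listed cytosines, against 0.332% to 0.393%. Among the polysome libraries, HF replicate 2 had 18155 (2.28%, the highest share of the 12), LF replicate 2 had 11495 (0.694%) and the other 4 had 4734 to 6124 (0.396% to 0.619%). The total libraries labelled HF called 3167 sites in 1860 genes, against 1795 and 1999 sites in 112 and 123 genes. Of those called sites, 55.5% followed directly on GGG, against 1.63% to 2.74% in the other 5 conditions. Gene coverage in the total libraries labelled HF had a rank correlation of 0.798 to 0.834 with the LF and MF total libraries, which correlated at 0.988 to 0.993 among themselves over 6432 genes. Polysome HF replicate 2 had 38353 listed cytosines with a level over 90%, while the other 11 had 1102 to 3465. Whether the total libraries labelled HF are those their labels name could not be settled from these files, so their values are given as those of the label and no effect of folate is read from them. Every total value at the HF label rests on these libraries. Median coverage of the listed cytosines was 335 to 605 reads in 11 libraries and 920 in polysome HF replicate 2. Of the 8 neural stem cell markers, 7 were listed in all 12 libraries, and cytosines at the Sox2 locus were listed in all 12 under the overlapping gene Sox2ot. Of the markers of other cell types, 2 of 5 for neurons (Map2 and Tubb3), 1 of 4 for astrocytes (Aldh1l1), 2 of 5 for the oligodendrocyte lineage (Olig2 and Pdgfra), 1 of 4 for microglia (Cx3cr1), 0 of 3 for endothelium and 5 of 7 for fibroblasts and mural cells were listed in all 12. Rbfox3, S100b, Sox10, Aif1, Csf1r, Cldn5 and Cdh5 of the same lists were listed in none, and the rest in some. Being listed says nothing of the level, and marker levels in the total libraries labelled HF differed from those of the LF and MF total libraries, as given beside the Ppm1m gene coverage.

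The Ptpn4 5′UTR cytosine had a mean m5C level of 33.4% ± 2.75 (SD, n = 6) over the total libraries. The LF libraries gave 29.6% of 108 reads and 30.9% of 97 reads. The MF libraries gave 34.9% of 63 reads and 32.7% of 107 reads. The total libraries labelled HF gave 35.6% of 177 reads and 36.6% of 145 reads. The 3 groups did not overlap and stood in the order LF, MF, HF label, but the Wilson 95% intervals of single libraries were wide, from 21.8% to 38.8% in LF replicate 1 and from 24.3% to 47.2% in MF replicate 1, and overlapped between all libraries. These intervals cover counting error only.

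The level of the Ptpn4 site did not differ detectably between LF and MF. It was 30.3% ± 0.918 in LF and 33.8% ± 1.56 in MF (SD, n = 2 each), a difference of -3.29 percentage points in pooled reads with a 95% interval of -12.8 to 6.20 (two-sided Fisher's exact test, adjusted p = 0.929 over 1842 called sites). Of those 1842 sites, 0.76% differed between LF and MF, and 0.163% were higher in LF. Most of them lay close to another called site, unlike the Ptpn4 site. Tested on their own, the 99 sites with no other called site within 25 bases gave 8 calls. Against MF, the total libraries labelled HF stood at 36.1% ± 0.678 (SD, n = 2), 2.50 points higher with an interval of -6.33 to 11.3 (Fisher's exact test, adjusted p = 0.634). In that comparison 94.3% of the 1138 called sites differed and 82.9% were higher at the HF label. A site entered it by passing the filter in either group. Of the 3167 sites called in the total libraries labelled HF, 2590 passed in no other condition. These shares therefore follow in part from the filter, and nothing is read from the Ptpn4 site not passing. Differences within these intervals were not detectable at this coverage.

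**Figure D1:**
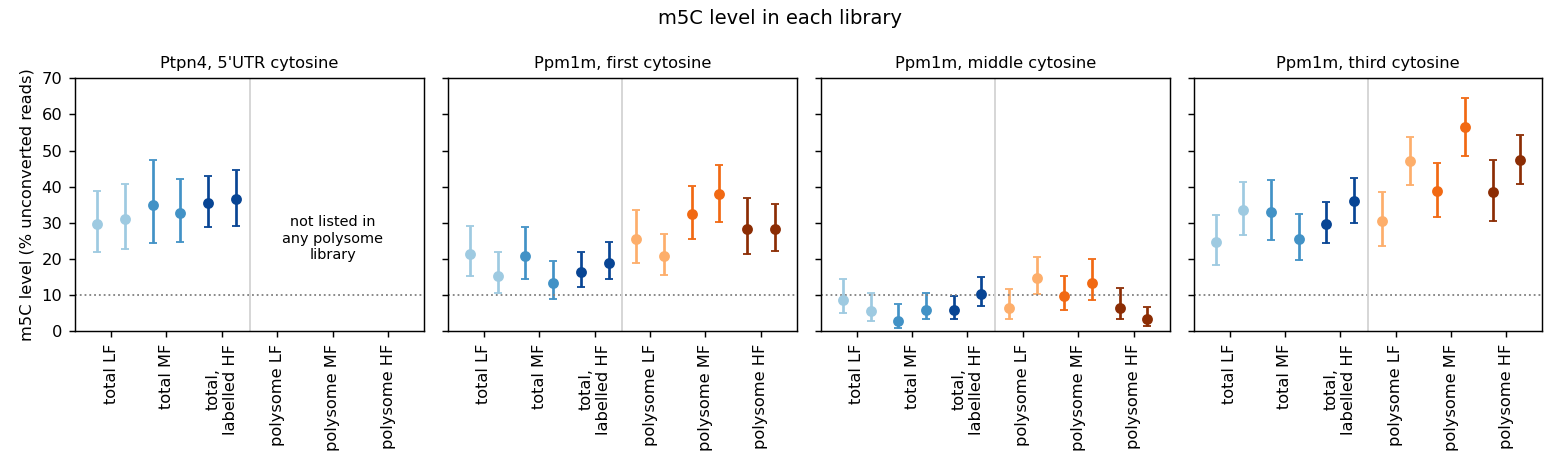
m5C level (y axis, % unconverted reads) of the Ptpn4 site and the 3 neighbouring Ppm1m cytosines in each of the 12 libraries (x axis, 2 points per group), with Wilson 95% intervals and a dotted line at 10%. The 6 total values of Ptpn4 lie between 29.6% and 36.6%, and the first and the third Ppm1m cytosine tend to lie higher in the polysome libraries.

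In the polysome libraries the Ptpn4 mRNA was nearly absent from the lists. The site was not listed in any of the 6 polysome libraries. A cytosine enters a list with at least 10 reads and at least 1 unconverted read, so an unlisted site had fewer than 10 reads or no unconverted read. With exactly 10 reads and the mean level in total RNA, no unconverted read would be drawn with a chance of 1.72%. The level of the site in polysome RNA is therefore not known, and no polysome comparison of the site was made.

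Over the whole Ptpn4 gene, 110 and 222 cytosines were listed in the total LF libraries. The total MF libraries listed 92 and 283, and those labelled HF listed 113 and 91. They lay in 9 to 15 of the 27 exons of Ptpn4-201, and all but 0 to 3 of them per library were exonic. In the polysome fraction, LF replicate 1 listed 1 cytosine and HF replicate 1 listed 2, and the other 4 libraries listed 0. The 3 polysome cytosines had 12, 10 and 23 reads, while the best covered Ptpn4 cytosine of each total library had 565 to 781 reads. The window of 500 bases that starts at base 5501 of Ptpn4-201 had the highest coverage in every total library, with medians of 522 to 695 reads, and 1 polysome library listed a single cytosine there, with 23 reads.

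**Figure D2:**
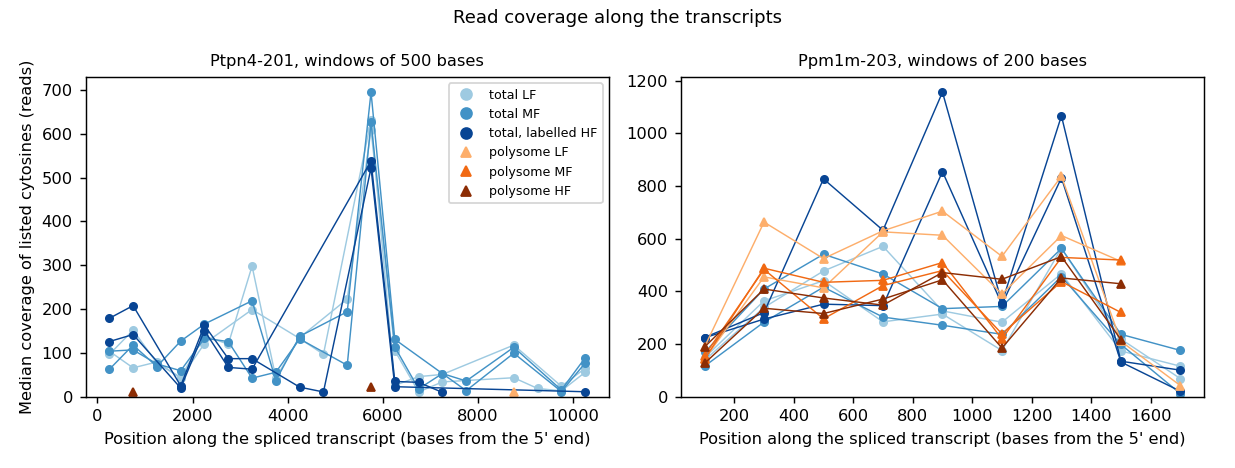
Median coverage of the listed cytosines (y axis, reads) along the spliced transcripts Ptpn4-201 and Ppm1m-203 (x axis, bases from the 5′ end), with total libraries as circles and polysome libraries as triangles. Ptpn4 has 3 polysome points, none above 23 reads, while Ppm1m is covered in both fractions over most of its length. Windows are 500 bases for Ptpn4-201 and 200 bases for Ppm1m-203.

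The counts of genes listed as rarely are a description, since the limit of at most 2 listed cytosines in each polysome library is the highest count of Ptpn4 itself. Of 9032 genes with at least 3 windows of 200 bases listed in all 6 total libraries, 28 had at most 2 listed cytosines in each polysome library, which is 0.31%. Among the 3721 genes with a mean total coverage within 2 times that of Ptpn4, 21 did so, or 0.564%. Among the 7680 genes covered at least as well, 9 did so, or 0.117%. Of 45 phosphatase genes with 3 such windows, no gene but Ptpn4 met this limit. Because the lists hold a cytosine only when a read stays unconverted, the number listed also moves with failed conversion. In the total libraries, 38 of 112 to 260 of 282 of the other listed Ptpn4 cytosines rested on 1 unconverted read, and most lay close together in runs.

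Transcript length moved with the fraction as well. The longest annotated transcript of Ptpn4 has 10874 bases, against a median of 4955 in the 28 rarely listed genes and 3577 in all 9032 genes. Over 6432 genes the rank correlation of transcript length with the log2 ratio of polysome to total coverage was -0.429, given as a description over genes that are not independent. The part of transcript length in the Ptpn4 result was not tested. In comparisons between folate labels, fewer cells that express a gene and less RNA per cell cannot be told apart in these bulk samples.

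No difference in Ptpn4 gene coverage between LF and MF was detectable in total RNA. Gene coverage is the mean over windows of 200 bases of the median coverage of the listed cytosines, scaled between libraries, and 7 windows of Ptpn4 were listed in all 6 total libraries. The LF libraries had 241 and 231 reads, the MF libraries 232 and 198 reads and the total libraries labelled HF 211 and 267 reads. The groups overlapped. The log2 difference was 0.14 ± 0.14 (SE) for LF against MF and 0.15 ± 0.14 for the HF label against MF (limma, adjusted p = 0.79 and 0.36 over 9032 genes). No gene passed in the former (0% called), where 797 had an unadjusted p under 0.05 and edgeR also called 0, while 71.3% passed in the latter, 35.5% as higher. Both log2 differences of Ptpn4 turned negative with windows of 100 or 500 bases, as given in the closing part on processing.

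Ppm1m was listed in all 12 libraries, with 63 to 188 cytosines in the total and 45 to 213 in the polysome libraries. At LF and MF its gene coverage, scaled between libraries and so relative to other genes, was higher in the polysome than in the total libraries. Scaled gene coverage over 8 windows shared by all libraries was 306 and 311 reads in total LF and 292 and 320 reads in total MF. It was 645 and 519 reads in polysome LF and 522 and 652 reads in polysome MF. The 4 polysome values were higher than the 4 total values. The log2 difference between polysome and total was 0.91 ± 0.20 (SE) at LF and 0.93 ± 0.20 at MF, 1.88-fold and 1.91-fold (limma, adjusted p = 0.00227 and 0.00196 over 6432 genes). In these comparisons 57.3% and 58.3% of all genes differed, and 28.9% and 29.1% were higher in the polysome libraries, so such a call was common. The longest annotated Ppm1m transcript has 1846 bases, against a median of 3577 in the 9032 genes above. Transcript length had a rank correlation of -0.429 with the log2 ratio of polysome to total coverage. The part of transcript length in the Ppm1m result was not tested.

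At the HF label the direction for Ppm1m was the opposite. The total libraries labelled HF gave 668 and 584 reads and the polysome HF libraries 523 and 336 reads, a log2 difference of -0.58 ± 0.20 (limma, adjusted p = 0.0247, with 65.3% of genes called in either direction and 33.1% higher). Without polysome HF replicate 2 the difference was -0.26 (adjusted p = 0.279), without total replicate 1 labelled HF it was -0.48 (adjusted p = 0.141), and with windows of 500 bases it was -0.28 (adjusted p = 0.274). The change of the polysome difference from MF to the HF label was -1.51 ± 0.29 on the log2 scale (limma interaction, adjusted p = 0.00187, with 2425 of 6432 genes called), a test chosen after seeing the data. Without polysome HF replicate 2 it was -1.19 (adjusted p = 0.00645), and leaving out each of the 12 libraries in turn gave -1.83 to -1.19 (adjusted p = 0.000828 to 0.0118). From MF to LF it was -0.02 ± 0.29 (limma, adjusted p = 1.00).

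Within the total RNA, Ppm1m was 2.04-fold higher in the libraries labelled HF than in MF, a log2 difference of 1.03 ± 0.20 (limma, adjusted p = 0.00126). The rise was not even along Ppm1m-203. Unscaled median coverage in bases 801 to 1000 was 1156 and 854.5 reads at the HF label, against 271.5 and 334.5 in MF. In bases 201 to 400 it was 319.5 and 295 against 283.5 and 409 reads. In bases 1401 to 1600 it was 135 and 132 against 198.5 and 237 reads, so the 2.04-fold value averages over unlike stretches. In that comparison 51.1% of all genes passed and 25.4% were higher, in libraries whose coverage pattern and called sites stood apart as given above, and the part of those library differences was not tested. Markers moved in the same libraries. Of the 7 markers of fibroblasts and mural cells, 3 had gene coverage in all 12 libraries, and all 3 were higher at the HF label (limma), with a sum of 5016 to 5693 reads in the LF and MF total libraries and 12766 and 12963 reads in those labelled HF. Acta2, the smooth muscle actin, rose 11.4-fold, Pdgfrb 2.77-fold and Col1a2 1.73-fold against MF (limma, adjusted p = 1.04e-07, 0.000366 and 0.0166), and cytosines of Dcn and Lum were listed only in the total replicate 1 labelled HF. Of the 8 neural stem cell markers, 7 were measured, with a sum of 44225 to 48002 reads in the LF and MF total libraries and 28693 and 29690 reads in those labelled HF. Fabp7, a fatty acid binding protein of radial glia, was 4.35-fold lower, and Slc1a3 and Nes were also lower, while Msi1 and Pax6 were higher (limma, adjusted p = 1.45e-06 to 0.0192). In the fit over all 12 libraries, Tubb3 was higher, Olig2 and Aldh1l1 lower and Cx3cr1 not called (limma, adjusted p = 0.159). Each was the 1 marker measured there for its cell type. In the fit over the total libraries alone, Cx3cr1 was called, 1.89-fold higher at the HF label than in MF (limma, adjusted p = 0.000144). That fit also measured Map2, 1.74-fold lower, and Pdgfra, 1.44-fold higher (limma, adjusted p = 5.36e-05 and 0.00111). Tubb3, Olig2 and Aldh1l1 kept their directions in it. The part of these marker differences in the Ppm1m result was not tested. LF and MF differed by 0.01 ± 0.20 in total RNA (adjusted p = 1.00, 0% of genes called, with 81 at an unadjusted p under 0.05 and 0 by edgeR). In the polysome fraction LF against MF gave -0.01 ± 0.20 (limma, adjusted p = 0.988, 0% called, with 697 at an unadjusted p under 0.05 and 0 by edgeR). HF against MF gave -0.48 ± 0.20 (limma, adjusted p = 0.293, 0.0622% called, 0.0466% as higher), with -0.16 (adjusted p = 0.783) without polysome HF replicate 2 and -0.80 (adjusted p = 0.129) without replicate 1.

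**Figure D3:**
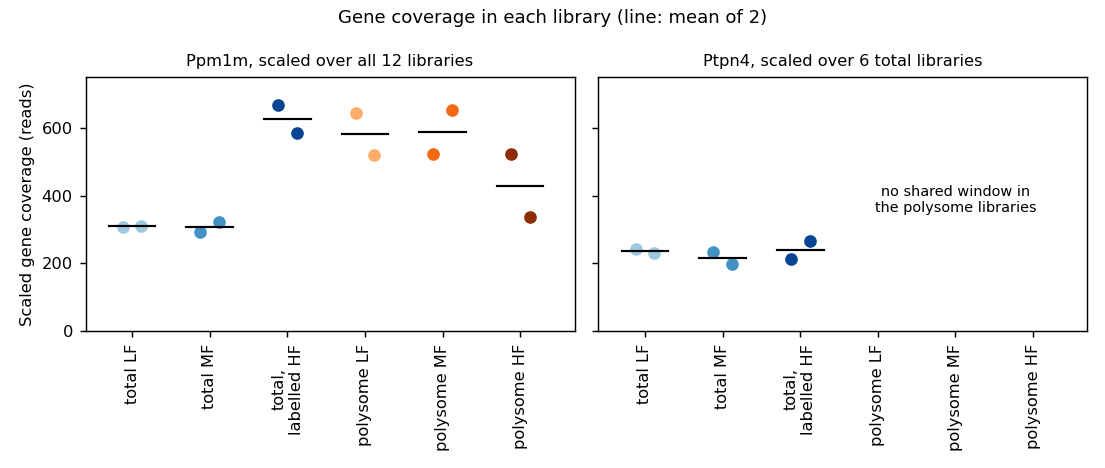
Scaled gene coverage (y axis, reads) of Ppm1m over all 12 libraries and of Ptpn4 over the 6 total libraries, with a point for each library and a line at the mean of 2. Ppm1m lies between 292 and 320 reads in the LF and MF total libraries and at or above 519 in the LF and MF polysome libraries, and Ptpn4 lies between 198 and 267 reads.

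The first Ppm1m cytosine had a higher m5C level in polysome than in total RNA. The total LF libraries gave 21.3% and 15.3%, the MF libraries 20.7% and 13.3% and those labelled HF 16.5% and 18.9%, at 116 to 231 reads. The polysome LF libraries gave 25.6% and 20.6%, the MF libraries 32.5% and 37.9% and the HF libraries 28.3% and 28.2%, at 127 to 189 reads. All polysome values but LF replicate 2 lay above all total values. The mean was 28.8% ± 5.89 in polysome and 17.7% ± 3.18 in total RNA (SD, n = 6 each), a difference of 11.2 percentage points (exact two-sided permutation test over 12 libraries, p = 0.00649, with 0.00216 as the smallest p possible). Permuted within folate concentration, the exact p was 0.0185. Without the 4 libraries labelled HF the difference was 11.5 points (exact p = 0.0857, with 0.0286 as the smallest p possible).

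The third cytosine had the highest levels of the run and also a higher mean in polysome RNA. The total LF libraries gave 24.7% and 33.6%, the MF libraries 33.1% and 25.6% and those labelled HF 29.7% and 35.9%, at 118 to 239 reads. The polysome LF libraries gave 30.6% and 47.1%, the MF libraries 38.9% and 56.6% and the HF libraries 38.6% and 47.5%, at 127 to 204 reads. The fractions overlapped, since polysome LF replicate 1 lay below 3 of the total values. The mean was 43.2% ± 9.10 in polysome and 30.4% ± 4.57 in total RNA (SD, n = 6 each), a difference of 12.8 points (exact two-sided permutation test, p = 0.0130). Permuted within folate concentration, the exact p was 0.0278, and without the 4 libraries labelled HF the difference was 14.1 points (exact p = 0.0857).

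At each folate label, the difference between fractions depended on the error term. With Fisher's exact test on pooled reads, the first cytosine was higher in polysome RNA at MF by 18.7 points (adjusted p = 1.68e-06) and at the HF label by 10.6 points (adjusted p = 0.00115), and at LF by 4.49 points with an interval of -1.91 to 10.9 (adjusted p = 0.247). The third cytosine was higher by 11.04 points at LF (adjusted p = 0.00676), 18.8 points at MF (adjusted p = 1.27e-05) and 11.2 points at the HF label (adjusted p = 0.00222). In the same test 65%, 53.6% and 65.3% of all called sites differed at LF, MF and the HF label, and 60.4%, 44.7% and 33.4% were higher in polysome RNA, so these calls were common ones. A site entered by passing the filter in either fraction, so these shares depend in part on the filter. Fisher's exact test counts reads and not replicates. With limma on the log odds of each library, which uses the spread between replicates, none of the 5 calls passed (adjusted p = 0.0520 to 0.313), while 218 of 480 sites passed at LF, 108 of 403 at MF and 353 of 649 at the HF label. Calls of the third cytosine also rested on single libraries. Fisher's exact test no longer passed at LF without polysome LF replicate 2 (1.36 points, adjusted p = 0.880) or total LF replicate 1 (6.68 points, adjusted p = 0.229), at MF without polysome MF replicate 2 (10.3 points, adjusted p = 0.0739), and at the HF label without polysome HF replicate 2 (5.82 points, adjusted p = 0.317) or total replicate 1 labelled HF (8.07 points, adjusted p = 0.1001). The calls of the first cytosine at MF and the HF label passed without any 1 library (adjusted p = 1.25e-06 to 0.0235).

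No difference between LF and MF was detectable at the Ppm1m sites in total RNA. The first cytosine was 18.3% ± 4.24 in LF and 17.0% ± 5.26 in MF (SD, n = 2 each), a pooled difference of 1.87 points with an interval of -4.34 to 8.08 (Fisher's exact test, adjusted p = 1.00). For the third cytosine the difference was 0.623 points with an interval of -6.68 to 7.92 (Fisher's exact test, adjusted p = 1.00). Against MF, the total libraries labelled HF differed by 1.37 points (-4.18 to 6.92) at the first and 4.19 points (-2.49 to 10.9) at the third cytosine (Fisher's exact test, adjusted p = 0.699 and 0.237).

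In polysome RNA the first cytosine was lower in LF than in MF. It was 23.1% ± 3.49 in LF and 35.2% ± 3.81 in MF (SD, n = 2 each), and the groups did not overlap. Of 1074 called sites, 9.68% differed in this comparison, 8.66% as higher and 11 sites as lower in LF. The pooled difference at the first cytosine was -12.4 points with an interval of -19.5 to -5.25 (Fisher's exact test, adjusted p = 0.0133). The call was lost with limma on the log odds (adjusted p = 0.470, 0 of 1074 sites called, 176 at an unadjusted p under 0.05). It was also lost without polysome LF replicate 2 (-9.47 points, adjusted p = 0.363) or without polysome MF replicate 2 (-9.80 points, adjusted p = 0.232). The third cytosine was 38.8% ± 11.7 in LF and 47.7% ± 12.6 in MF (SD, n = 2 each), and its groups overlapped (-7.10 points, adjusted p = 0.415). That comparison passed without polysome LF replicate 2 (-16.8 points, adjusted p = 0.0159) and without polysome MF replicate 1 (-16.4 points, adjusted p = 0.0248), and turned positive without polysome MF replicate 2 (1.38 points).

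HF and MF polysome RNA differed by -6.79 points (-14.2 to 0.630) at the first cytosine and by -3.33 points (-11.1 to 4.48) at the third (Fisher's exact test, adjusted p = 0.350 and 0.996, with 9.1% of 703 called sites differing and 6.69% higher in HF). Without polysome HF replicate 2 the differences were -6.69 points (adjusted p = 0.962) and -8.75 points (adjusted p = 0.755). Without polysome MF replicate 2 they were -4.22 and 5.15 points (adjusted p = 1.00 and 0.942). The polysome comparisons of LF and of HF share the MF libraries. The change of the polysome difference with folate did not pass for either cytosine (limma interaction on the log odds, adjusted p = 0.419 to 0.957 over 352 sites), while 180 of the 352 sites passed from MF to the HF label and 0 from MF to LF.

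The middle cytosine of the Ppm1m run stayed low. Its level was 2.63% to 10.3% in the total libraries and 3.17% to 14.7% in the polysome libraries, with medians of 5.81% and 7.98%. It passed all 3 limits in 1 total library, replicate 2 labelled HF, and in 2 polysome libraries, LF replicate 2 at 14.7% and MF replicate 2 at 13.3%. In each of the 12 libraries its level was below that of both neighbours. Other cytosines just outside the limits had too few unconverted reads or too low a level. Too few unconverted reads were found, for example, at a Ptpn4 cytosine with 4 of 31 reads (12.9%) in the total replicate 1 labelled HF and at a Ppm1m cytosine with 5 of 48 reads (10.4%) in the total replicate 2 labelled HF. Just inside the limits, the lowest level of a called site in a passing library was 13.3%, for the first Ppm1m cytosine in total MF replicate 2.

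Cytosines close to the sites had low levels. Within 50 bases of the Ptpn4 site the transcript has 40 other cytosines, of which 0 to 4 were listed in each total library, and the highest level was 4.95%, with 9 unconverted reads, in the total replicate 1 labelled HF. Around the Ppm1m run, 2 to 7 other cytosines were listed in each of the 12 libraries, and the highest level was 4.30%, with at most 6 unconverted reads at any of them. A cytosine that was not listed had no unconverted read or fewer than 10 reads.

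**Figure D4:**
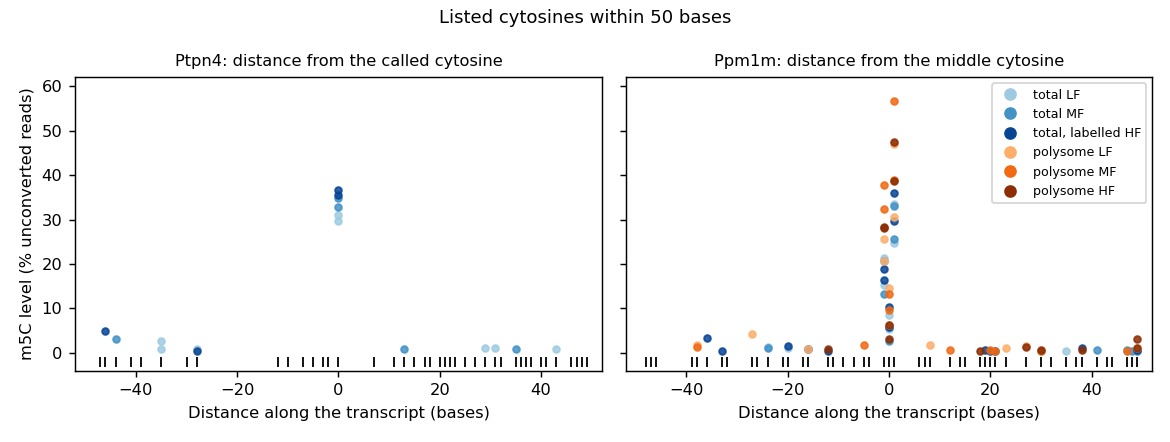
m5C level (y axis, % unconverted reads) of every listed cytosine within 50 bases of the Ptpn4 site and of the middle Ppm1m cytosine (x axis, bases along the transcript), coloured by group, with a tick for each cytosine of the transcript. Apart from the called site and the Ppm1m run, no listed cytosine exceeds 4.95%.

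Predicted pairing differed between the sites. Stretches of 151 bases centred on the Ptpn4 site and on the first Ppm1m cytosine were folded with RNAfold. The latter stretch served the whole Ppm1m run. The Ptpn4 cytosine was paired with a probability of 0.190 at 37 °C and 0.273 at 70 °C. The medians were 0.967 and 0.807 for the 56 other cytosines of its stretch. The first Ppm1m cytosine was predicted to be unpaired, with pairing probabilities of 0.0830 and 0.0572. The middle cytosine had 0.939 and 0.792, and the third had 0.958 and 0.892, against medians of 0.849 and 0.544 for the other cytosines. Stable pairing is known to hinder bisulfite conversion, and its part in the levels was not tested.

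Among 67 phosphatase genes in 4 lists, 14 had a called site, 20 sites in all, beside 2079 of the 17202 genes listed. Of these, 12 sites in 9 genes passed in the total libraries labelled HF alone, and all 12 followed on GGG, beside 67.8% of the 2590 sites of all genes called there alone, whereas the Ptpn4 and Ppm1m sites did not. Contexts of such sites are shown beside the members because they differ from them in the bases before the cytosine.
Ptpn1, 3′UTR, chr2:167977180-167977180, plus strand: gtgaggagggCagccacatgg
Ppm1a, coding, chr12:72784242-72784242, plus strand: atgcagggggCtcggtgatga
Ppp1cc, 3′UTR, chr5:122174856-122174856, plus strand: ctccgtggggCctcagaagca
Ptpn1 is a tyrosine phosphatase of the endoplasmic reticulum, Ppm1a a PPM phosphatase like Ppm1m, and Ppp1cc a catalytic subunit of protein phosphatase 1. Without sites called in the labelled HF total libraries alone, 6 of the 58 phosphatase genes with a listed cytosine had a called site, beside 331 of all 17202 genes (1.92%). Of the 6, 2 are Ptpn4 and Ppm1m, which were chosen for their sites, so nothing is read from the count.

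The other 4 were Ptprn, Ptprf, Ptpn13 and Tab1, and their 5 sites were listed in all 12 libraries.
Ptprn, 3′UTR, chr1:75247363-75247363, minus strand: cctgctttatCcatgctagaa
Ptprn, coding, chr1:75251753-75251753, minus strand: tggacttccgCaggtgagcaa
Ptprf, coding, chr4:118220566-118220566, minus strand: agcagtcaatCgggctgaagg
Ptpn13, coding, chr5:103588150-103588150, plus strand: ccgcacgctgCagggcttgct
Tab1, 3′UTR, chr15:80160366-80160366, plus strand: ctgacctttgCgggggccatg
Ptprn is a receptor-like member of the tyrosine phosphatase family found in secretory granules, Ptprf a receptor tyrosine phosphatase of cell adhesion, Ptpn13 a large FERM and PDZ protein like Ptpn4, and Tab1 a pseudophosphatase of the PPM family that activates the kinase Tak1.

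Several of these sites entered the list through the polysome fraction, so their levels by fraction are a description with no test. The coding cytosine of Ptprn passed the filter in the 3 polysome conditions alone. The coding cytosine of Ptprn had 6.31% to 8.63% in the total and 10.3% to 14.01% in the polysome libraries, at 1103 to 3500 reads. Within polysome RNA it was lower in LF than in MF by pooled reads (-2.66 points, Fisher's exact test, adjusted p = 0.0137). Its 3′UTR cytosine and the sites of Tab1, Ptprf and Ptpn13 were not called in that comparison. Ptprf and Ptpn13 passed in polysome LF alone. Ptprf had 1.69% to 7.17% in total and 7.78% to 16.4% in polysome RNA, and Ptpn13 had 2.50% to 12.2% and 6.25% to 18.7%. The 3′UTR cytosine of Ptprn had 11.9% to 29.4% in total RNA, at 34 to 63 reads. In polysome RNA it had 20.9% to 23.3%, at 340 to 550 reads. No difference between its fractions passed at LF or the HF label, where it was called in both. The differences were 4.70 and 3.91 points (Fisher's exact test, adjusted p = 0.454 and 0.473), the latter 4.93 points without polysome HF replicate 2. The few reads in total RNA limit this test. The Tab1 cytosine had 6.45% to 22.3% in total and 12.6% to 16.3% in polysome RNA. At the HF label, where both fractions passed the filter, it differed by -3.60 points (Fisher's exact test, adjusted p = 0.139), and by -5.88 points without polysome HF replicate 2 (adjusted p = 0.0693).

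In gene coverage, 37 of the 67 phosphatase genes had enough shared windows. At MF, 6 were higher and 14 lower in polysome than in total RNA, with a median log2 difference of -0.15, beside -0.01 over all 6432 genes, of which 29.1% were higher and 29.2% lower. At LF, 5 were higher and 15 lower, with a median of -0.24, beside -0.0023 over all genes, of which 28.9% were higher and 28.4% lower. At the HF label, 9 were higher and 15 lower, with a median of -0.28, beside 0.0053 over all genes, of which 33.1% were higher and 32.2% lower. No gene of the lists passed between LF and MF in either fraction, beside 0% of all 6432 genes in each.

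Ppm1m was 1 of the 5 phosphatase genes that were higher in polysome RNA at LF and 1 of the 6 at MF. In its own PPM list, 11 of 19 genes were tested, and 3 were higher and 2 lower at MF, where the shares of all genes just given hold for each list. Ilkap, a PPM phosphatase of integrin-linked kinase, had log2 differences of 1.16 at LF and 1.10 at MF, and Ppm1g, a nuclear PPM phosphatase that acts on splicing factors, had 0.93 and 0.84. Both kept a positive difference at the HF label (0.62 and 0.87), where Ppm1m was at -0.58. Ppm1b, Tab1 and Phlpp1 of the same list were not called at MF (0.01, 0.18 and -0.34). They were lower at the HF label (-0.52, -0.46 and -0.83). Ppm1l and Phlpp2 were not called at MF either (0.02 and 0.35) and were higher at the HF label (0.55 and 1.14). Of the 11 tested PPM genes, 4 were higher and 4 lower at the HF label, beside 33.1% and 32.2% of all genes. In the list of Ptpn4, the non-receptor tyrosine phosphatases, 8 of 17 genes were tested, and 0 were higher and 3 lower at MF. These were Ptpn9, Ptpn11 and Ptpn14, at -0.92, -0.71 and -0.45. Ptpn11 encodes Shp2, a phosphatase of growth factor signalling. Of the 9 tested receptor tyrosine phosphatases, 2 were higher and 5 lower at MF, with Ptprz1, a receptor abundant in neural progenitors, lowest at -2.36. Of the 9 tested catalytic subunits of PP1, PP2A and relatives, 1 was higher and 4 lower at MF, among them Ppp3ca, a catalytic subunit of calcineurin, at -1.25.

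**Figure D5:**
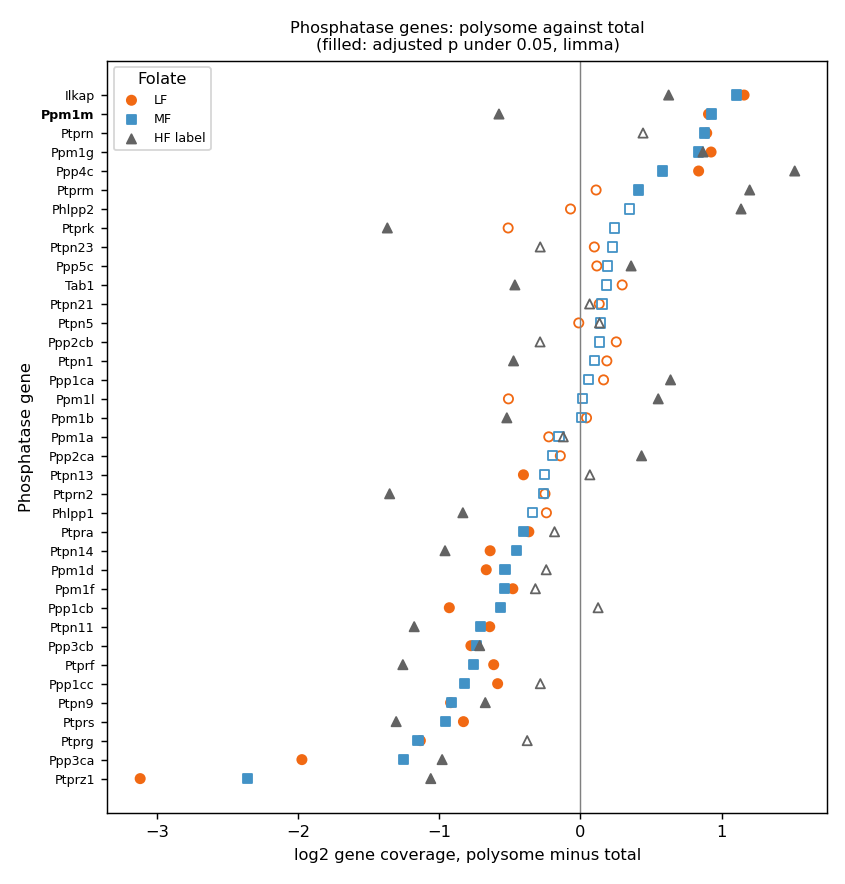
log2 difference in gene coverage between polysome and total RNA (x axis) for the 37 phosphatase genes tested (y axis) at LF, MF and the HF label, with filled symbols for an adjusted p under 0.05 (limma). Ppm1m lies near 0.9 at LF and MF and at -0.58 at the HF label, and Ptpn4 is not drawn because it has no window shared by all libraries.

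The called sites of other genes most like the members were picked by the root mean square difference of the level over the libraries in which the member site had at least 20 reads. For Ptpn4, over the 6 total libraries and 1180 candidate sites, they were in Rnf157, Zbtb4 and Wac, at 5.19 to 5.60 points. For the first Ppm1m cytosine, over 12 libraries and 350 candidates, they were in Sec61a1, Cenpv and Med24, at 5.47 to 6.43 points. For the third Ppm1m cytosine they were in Srsf6, Rela and Glg1, at 8.30 to 8.94 points. The likeness is one of level only.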

How the data were processed

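Each of the 12 deposited lists gives, per cytosine, the coverage and the number of unconverted reads as counts, and the m5C level as a fraction (unconverted reads over reads without a mismatch); the authors made these values with fastp trimming, unique alignment by meRanGh to mm10 and meRanCall. The submitters' processing notes name R 4.1.1. The lists start at 10 reads and 1 unconverted read per cytosine and were taken before the later filters of the study on unconverted read clusters, signal to noise, false discovery rate and structure. Rows marked as variants were left out.

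Levels were compared with two-sided Fisher's exact tests on reads pooled over replicates (scipy 1.17.1), adjusted by the Benjamini-Hochberg method over all called sites that reached 20 reads in each of the 4 libraries compared. Differences in mean level between fractions were tested by exact permutation. Differences always read as the first group minus the second. Gene coverage was the mean over windows of 200 bases, listed in all 12 libraries, of the median coverage of listed cytosines, for genes with at least 3 windows. It was scaled by the median ratio to the geometric mean, and log2 values were fitted with limma 3.58.1 (lmFit, eBayes with trend) over 6 groups in R 4.3.3. Ptpn4 has no such window, so a fit over the 6 total libraries, chosen after seeing the data, was used for it. Stretches were folded with RNAfold 2.7.2. Alternatives were edgeR 4.0.16 on rounded gene coverage, limma on log odds with a pseudocount of 0.5, other coverage limits and windows, and leaving out each library. Tests were run on simulated data first. Genome and annotation were GRCm38 and GENCODE vM21.

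The members, lists and tests were chosen with earlier results of these data known. Named genes were the members, genes of 4 phosphatase lists with a called site, the 3 most alike sites of each member site, and phosphatases named for their values after these were seen. Nothing beyond the word biological replicates says how the replicates were separated. The limma and permutation p-values rest on the spread between these cultures. Those of Fisher's exact test rest on pooled read counts and measure no spread between cultures. No molecular identifiers are described for the reads, and intervals cover counting error only.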

Additional observations from a re-analysis of the deposited data

Results flagged for a closer look

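The difference in Ppm1m gene coverage between polysome and total RNA was not the same at every folate label. From MF to the HF label it changed by -1.51 on the log2 scale (limma interaction, adjusted p = 0.00187), and 2425 of 6432 genes passed the same test. The difference was 0.93 at MF and -0.58 at the HF label. The change was -1.19 without polysome HF replicate 2 (adjusted p = 0.00645). The total libraries labelled HF, which stood apart in coverage pattern, in called sites and in marker levels, enter this result. Their rise in Ppm1m coverage was not even along the transcript. Within total RNA the HF label against MF gave 1.03 (limma, adjusted p = 0.00126). Within polysome RNA, HF against MF gave -0.48 (limma, adjusted p = 0.293). These are the terms of the change. The part that the other differences of the total libraries labelled HF have in it was not tested. From MF to LF the change was -0.02 (limma, adjusted p = 1.00). No library of either fraction was an outlier by Dixon's criterion for the member site levels or gene coverage. The criterion takes a single extreme value per fraction. It could not flag libraries that stand apart together, as the total libraries labelled HF did in Ppm1m gene coverage.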

How the results depend on the processing

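Over 29 results on Ptpn4 and Ppm1m and 355 values under alternatives, 313 kept direction and side of the threshold, 18 lost a call, 2 gained one and 22 changed sign, all of the last in comparisons that had not passed. Leaving out each library in turn, the percentage point differences of the third Ppm1m cytosine ranged from -12.6 to 5.15 for polysome HF against MF, from -16.8 to 1.38 for polysome LF against MF, from -0.285 to 7.36 for total HF label against MF, from -3.91 to 4.98 for total LF against MF, and between polysome and total from 1.36 to 17.9 at LF, 10.3 to 28.1 at MF and 5.82 to 14.7 at the HF label. Those of the first cytosine ranged from -15.2 to -9.47 for polysome LF against MF, from -9.61 to -4.22 for polysome HF against MF, from 1.35 to 7.38 between fractions at LF, from -3.00 to 4.43 for total HF label against MF and from -2.51 to 5.01 for total LF against MF. The log2 gene coverage differences of Ppm1m ranged from -0.17 to 0.15 for polysome LF against MF, from -0.0540 to 0.0780 for total LF against MF (-0.0824 to 0.113 over the total libraries) and from -0.90 to -0.26 between fractions at the HF label. Polysome HF against MF ranged from -0.80 to -0.16, and the change of the difference between fractions from -1.83 to -1.19 from MF to the HF label and from -0.184 to 0.137 from MF to LF, a result not among the 29. Ptpn4 gene coverage over the total libraries ranged from 0.0225 to 0.257 for total LF against MF and from -0.0173 to 0.320 for total HF label against MF. The Ptpn4 site ranged from 1.10 to 3.31 points for total HF label against MF and from -4.68 to -2.47 for total LF against MF.

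With limma on the log odds, these pooled differences lost the call: for the first cytosine -12.4 (polysome LF against MF), 18.7 (fractions at MF) and 10.6 (at the HF label), and for the third 11.04, 18.8 and 11.2 at LF, MF and the HF label. In the same order limma gave log2 odds differences of -0.85, 1.42 and 0.87 for the first (adjusted p = 0.470, 0.0520 and 0.129) and of 0.62, 1.14 and 0.63 for the third (adjusted p = 0.309, 0.131 and 0.313). Without the 4 libraries labelled HF the permutation differences were 11.5 and 14.1 points (exact p = 0.0857 each). For Ppm1m gene coverage, polysome LF against MF became 0.0864 with windows of 100 bases and 0.00271 with at least 1 window, the difference at the HF label -0.28 with windows of 500 bases, which ended the call (adjusted p = 0.274), and total LF against MF over the total libraries -0.00257 under scaling by summed coverage. For Ptpn4 gene coverage, LF against MF became -0.0643 and -0.14, and the HF label against MF -0.13 and -0.17, with windows of 100 and 500 bases. The cause of these shifts was not tested.

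Counts of called sites were 14 for total LF against MF (0 with limma on the log odds, 8 of 99 sites with no called site within 25 bases, hereafter isolated, 0 without total LF replicate 1 to 32 without total LF replicate 2, and 4 without total MF replicate 1), 1073 for the total HF label against MF (629 at a coverage of 50, 279 isolated, 474 without MT), 104 for polysome LF against MF (0 with limma, 32 isolated, 41 without MT, 65 to 87 leaving out a library), 64 for polysome HF against MF (0 with limma, 28 to 70 leaving out a library), and 312, 216 and 424 between fractions at LF, MF and the HF label (110, 105 and 267 isolated, 108 with limma at MF, 431 to 842 leaving out a library at the HF label, the highest without polysome HF replicate 2). Genes called in coverage were 0 for polysome LF against MF (3 with windows of 500 bases, 1 with at least 1 window, 0 to 1152 leaving out a library, the highest without polysome LF replicate 2), 4 for polysome HF against MF (18 with windows of 100 bases, 0 with at least 1 window, 10 with edgeR, 0 with only the 4 libraries compared, 0 to 465 leaving out a library, with 460 and 465 without polysome LF replicate 1 and 2) and 0 for total LF against MF over the total libraries (1 with at least 1 window, 0 to 5 leaving out a library).

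The labels do not say whether replicate numbers pair the libraries, and the main tests used no pairing. The differences between replicates 1 and 2 correlated at -0.341 to 0.209 over genes between the groups compared, which cannot decide it. With the replicate block, limma called 7 genes for polysome HF against MF in place of 4, and the block changed no call of a member. Depth limits the site results: the member sites had 63 to 239 reads per library, which gave a 95% interval of -12.8 to 6.20 points for the Ptpn4 difference between LF and MF.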
